A study of Mus musculus with 21 samples.

Results

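F-spondin, its relative mindin, the F-spondin receptor LRP8, related lipoprotein receptors and amyloid precursor proteins were followed in RNA of mouse inflammatory monocytes (IMs). IMs are the Ly6C-high monocytes that leave the bone marrow (BM) and enter inflamed tissue and tumors. The genes were Spon1 and Spon2 (the spondins), Lrp8, Vldlr and Lrp1 (lipoprotein receptors of 1 gene family), Lrpap1 (the chaperone of that family), and App and Aplp2 (amyloid precursor proteins). They were chosen by symbol, and all 8 were present among the 23420 gene symbols of the count table. The study selected Spon1 on its rise from BM IMs to tumor IMs (TIMs) in these same libraries, so its values in those comparisons are given as a description with no test, and the counts of changed genes there cover the 7 others. The 7 others were chosen by their known roles, with earlier results of these data in view.

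RNA-Seq counts came from 21 libraries in 5 groups. LN2E1 (KAL-LN2-E1 in the labels) is a mouse lung squamous carcinoma line made by in vivo passaging. It was injected into the lungs of FVB mice at 500000 cells per mouse, and TIMs were taken from primary lung tumors (n = 5) and from lymph node metastases (n = 5). LN4K1, derived from the KLN-205 squamous line, was injected intravenously into DBA2 mice at 300000 cells per mouse, and TIMs were taken from lung metastases (n = 5). The baselines were BM IMs of FVB mice (n = 3) and of DBA2 mice (n = 3) without tumors. No gene was altered in the mice of any group, and each model rests on 1 cell line. The study's methods call the libraries of a group technical replicates, so p-values measure the spread between these libraries, and it is not given how many animals stand behind them. Within each strain BM IMs and TIMs differed in tissue as well as in tumor exposure, and between the models the strain, line, route and tissue changed together.

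Spon1 encodes F-spondin, a secreted matrix protein with thrombospondin repeats that is best known for guiding axons from the floor plate of the embryonic spinal cord. F-spondin binds LRP8 (also called ApoE receptor 2) and the extracellular part of the amyloid precursor protein. LRP8 and VLDLR are also the receptors for reelin and pass its signal through the adaptor Dab1 and Src family kinases. LRP1 is a very large endocytic receptor of macrophages, fibroblasts and hepatocytes, and the chaperone encoded by Lrpap1 keeps these receptors from binding ligands before they leave the endoplasmic reticulum.

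The 5 transmembrane genes share a sequence known from their families, so its presence came with the choice of genes and is a description with no test. Their cytoplasmic tails carry the NPxY motif (asparagine, proline, any residue, tyrosine), at which adaptors such as Dab1, Dab2 and the Apbb proteins bind. The motif lay within the last 120 codons of the coding sequence in Lrp8, Vldlr, App and Aplp2 (1 copy each) and in Lrp1 (2 copies). It did so in 192 of 20438 protein-coding genes with at least 120 codons (0.9%), transmembrane or not. Spon1, Spon2 and Lrpap1 had no copy anywhere in their coding sequences. The coding strand around each copy is shown 5′ to 3′ with the 4 codons of the motif in capitals. The sequences were read from the GENCODE vM21 transcripts of GRCm38, a reference from C57BL/6J and not from FVB or DBA2.
Lrp8, chr4:107869052-107869081, plus strand: aatttcgacAACCCAGTGTACaggaaaacg
Vldlr, chr19:27247931-27247960, plus strand: aactttgacAATCCTGTGTACttgaagacc
Lrp1, first copy, chr10:127539299-127539328, minus strand: gaaattggaAACCCTACCTACaagatgtat
Lrp1, second copy, chr10:127539055-127539084, minus strand: aacttcaccAACCCAGTGTATgccacgctc
App, chr16:84955349-84955378, minus strand: ggatatgagAATCCAACTTACaagttcttt
Aplp2, chr9:31150889-31150918, minus strand: ggttatgaaAACCCAACCTACaaatacctg

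Libraries held between 80772922 and 101043568 counts, and no 2 libraries of a group agreed within sampling noise. Levels are given in CPM, which are counts scaled to library size and to TMM factors over all libraries, and a gene is said to have risen, fallen or changed where its adjusted p in edgeR's quasi-likelihood test was under 0.05. Monocyte genes (Ptprc, Itgam, Ly6c2, Ccr2, Csf1r and Cd14) summed to between 5820 and 6840 CPM in BM IM libraries and between 9760 and 14900 CPM in TIM libraries. Within this sum Cd14 was higher in TIMs (group means of 2970 to 4870 CPM, against 452 and 589 in BM IMs), and Ly6c2, which encodes the sorted Ly6C, was lower (1240 to 1480 CPM, against 2580 and 3020). Markers of other cell types differed between the groups. The 6 fibroblast markers summed to between 365 and 1110 CPM in primary tumor TIMs, 0.836 and 87.1 in lymph node TIMs, 1.31 and 43.0 in LN4K1 TIMs and at most 0.359 in BM IMs, with Lum at 0 in both BM groups. The 7 squamous and lung epithelial markers summed to between 138 and 709 CPM in primary tumor TIMs, 10.0 and 141 in lymph node TIMs, 2.93 and 142 in LN4K1 TIMs and at most 2.44 in BM IMs. In lymph node TIMs most of this sum was Cdh1, with a mean of 62.4 CPM against 52.5 in primary tumor TIMs. Sftpc averaged 0.133 CPM in lymph node TIMs and 234 in primary tumor TIMs, and Krt8 averaged 0.0318 and 12.6. The 4 endothelial markers summed to between 5.24 and 16.4 CPM in primary tumor TIMs, 2.68 and 12.8 in lymph node TIMs, 1.35 and 2.90 in LN4K1 TIMs and at most 1.47 in BM IMs. Eosinophil markers ran the other way, with 427 to 1130 CPM in BM IMs and at most 64.9 in TIMs. Neutrophil markers summed to between 1240 and 1530 CPM in FVB BM IMs and 442 and 642 in DBA2 BM IMs. In TIMs they summed to between 571 and 844 CPM in primary tumors, 219 and 639 in lymph nodes and 743 and 1130 in LN4K1 lungs. In such bulk samples a change in the share of a cell type and a change of RNA per cell cannot be told apart.

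Spon1 (chromosome 7, 113765998 to 114043370, plus strand, GRCm38) was close to 0 in FVB BM IMs, low in DBA2 BM IMs and far higher in every TIM library. FVB BM IM libraries held 14, 8 and 0 Spon1 counts, and DBA2 BM IM libraries held 808, 1172 and 1661. The primary tumor TIM libraries held 5331, 6261, 3690, 5601 and 3032 counts, the lymph node TIM libraries 3426, 3898, 4203, 6297 and 4581, and the LN4K1 TIM libraries 16375, 20732, 4381, 18545 and 9454. No TIM library overlapped with the BM IM libraries of its strain. In CPM the levels were 0.0802 ± 0.0796 (SD, n = 3) in FVB BM IMs, 12.5 ± 4.67 (n = 3) in DBA2 BM IMs, 53.6 ± 14.4 (n = 5) in primary tumors, 55.0 ± 13.5 (n = 5) in lymph nodes and 153 ± 67.6 (n = 5) in LN4K1 lungs. Primary tumor and lymph node TIMs, neighbors in this order, overlapped almost fully, while lymph node and LN4K1 TIMs overlapped through 1 LN4K1 library.

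The rise that led the study to Spon1 was a log2 fold change of 9.43 (SE 0.63) in primary tumors, 9.47 (SE 0.72) in lymph nodes and 3.54 (SE 0.49) in LN4K1 lungs. As ratios of mean CPM these were 669-fold for primary tumors and 12.2-fold for LN4K1 lungs. The first 2 values share the 3 FVB BM IM libraries with their few counts, and they moved to 10.40 and 10.42 without FVB replicate 1 and to 8.80 and 8.84 without FVB replicate 3. DESeq2's shrunken value for primary tumors was 8.06. LN4K1 replicate 3 stood lowest of its group with 59.2 CPM, against 106 to 219 CPM in the 4 others. That library also had the lowest epithelial marker sum of its group, 2.93 CPM against 91.0 to 142. Its sums of dendritic cell markers (342 CPM, against 102 to 184) and T cell markers (8.05 CPM) were the highest of the group. Its total (82555019 counts) and its number of genes with at least 10 counts (12015) were the lowest. The part of each of these in its Spon1 level was not tested. Lymph node replicate 1 held 41.5 CPM of Spon1 at marker sums of 0.836 CPM for fibroblasts, 61.2 for epithelium and 2.77 for endothelium, and the part of these cells in the Spon1 level was not tested.

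Spon2 (chromosome 5, 33198184 to 33218455, minus strand) encodes mindin, a matrix protein that binds integrins and bacterial lipopolysaccharide. It was detected in every primary tumor TIM library and only in some libraries of the other groups. Counts were 351, 828, 231, 357 and 305 in primary tumors, 0, 1, 40, 172 and 18 in lymph nodes, 109, 12, 1, 15 and 446 in LN4K1 lungs, 2, 0 and 19 in FVB BM IMs, and 0 in each of the 3 DBA2 BM IM libraries. Mean levels were 4.66 ± 2.67 CPM (n = 5) in primary tumors, 0.564 ± 0.890 (n = 5) in lymph nodes, 1.31 ± 2.11 (n = 5) in LN4K1 lungs and 0.0642 ± 0.0921 (n = 3) in FVB BM IMs. The primary tumor libraries lay above all FVB BM IM and all lymph node libraries, whereas lymph node and FVB BM IM libraries overlapped.

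In the edgeR fit over all genes Spon2 rose in primary tumors by 6.06 on the log2 scale (SE 0.99, adjusted p = 0.000563), a value that went to 8.57 without FVB replicate 3. The lymph node value of 3.08 (SE 2.20, adjusted p = 0.315) missed the threshold. In LN4K1 TIMs the adjusted p was 0.0441, and the mean was at least 42.4-fold above what a floor of 3 counts per library allows in DBA2 BM IMs, a bound that fell to 12.7-fold without LN4K1 replicate 5. The fitted log2 value of 9.86 (SE 2.89) depends on the prior count and is no bound. This LN4K1 call held in 2 of 8 fits that left out a library: it was lost without any 1 of DBA2 replicates 1, 2 or 3 (adjusted p between 0.103 and 0.110) or LN4K1 replicates 1, 4 or 5 (between 0.0565 and 0.0707), and with the replicate number as a block (0.109). Primary tumor TIMs, with the most Spon2, also had the highest fibroblast sums, while LN4K1 TIMs had a higher Spon2 mean than lymph node TIMs and a lower median fibroblast sum, 6.46 against 28.4 CPM. Within the LN4K1 group replicate 5 had both the most Spon2, 4.98 CPM, and the highest fibroblast sum, 43.0 CPM. Within the primary tumors the most Spon2, 9.36 CPM, was in replicate 2 with a fibroblast sum of 1040 CPM, and the highest fibroblast sum, 1110 CPM, was in replicate 4 with 3.94 CPM of Spon2. Among lymph node libraries the highest fibroblast sum, 87.1 CPM, was in replicate 2 with 0.0133 CPM of Spon2. The part of these cells in the Spon2 level was not tested.

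**Figure D1:**
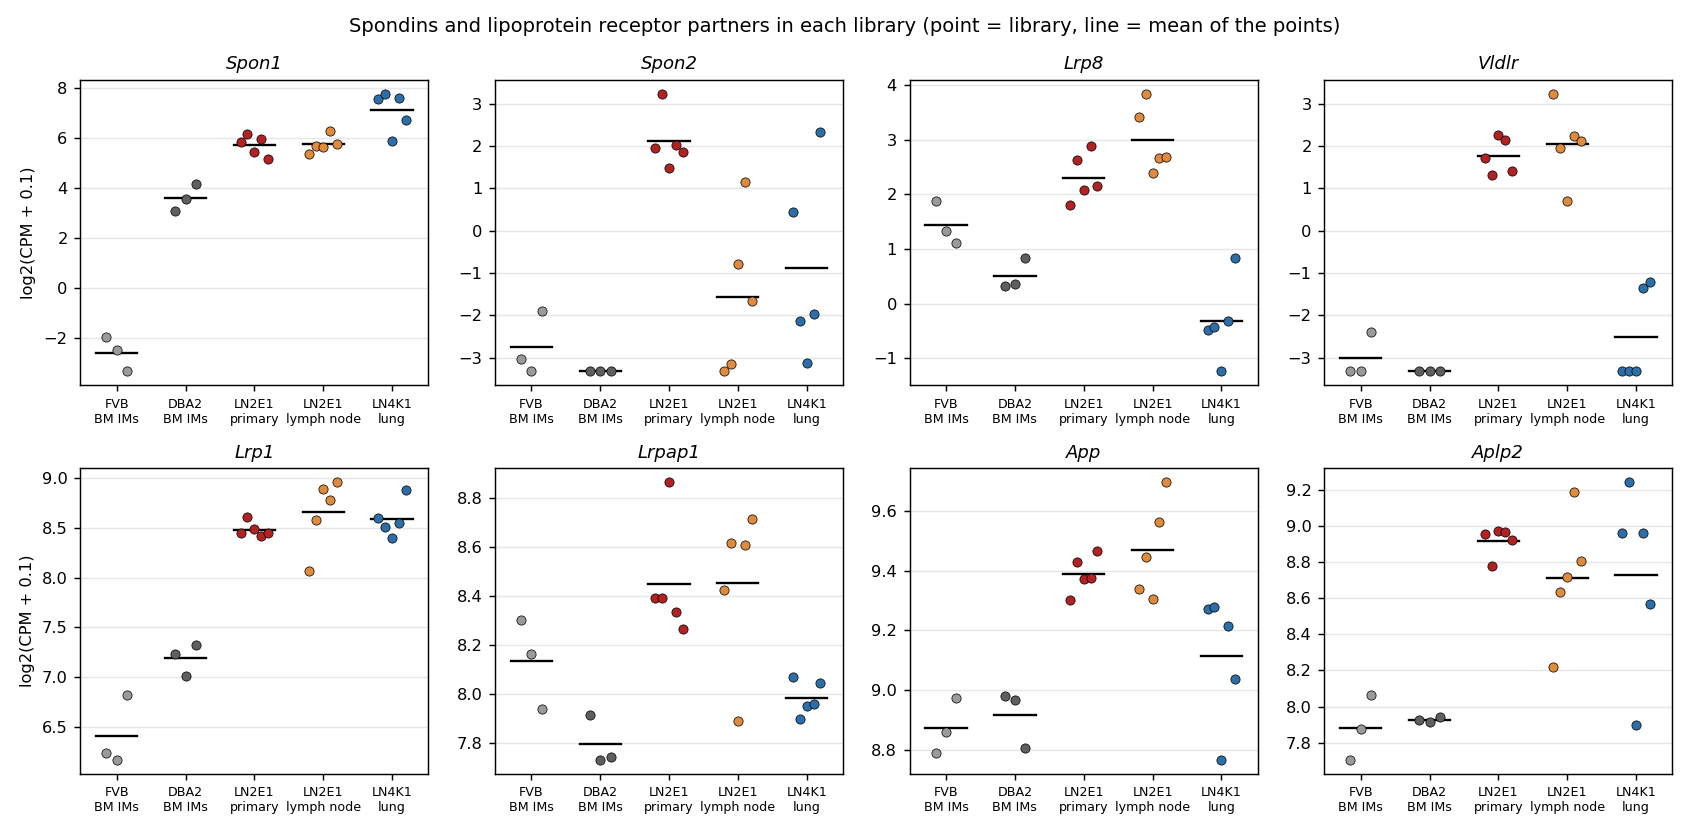
Each panel plots 1 gene, with log2 of CPM plus 0.1 on the y axis and the 5 groups on the x axis (points are libraries, lines are the mean of the points, n = 3 for BM IMs and 5 for TIMs; the y axes differ between panels). Spon1 and Lrp1 stand above BM IMs in all 3 TIM groups, Vldlr in the LN2E1 groups, and Lrp8 is lowest on average in LN4K1 TIMs, at 0.792 CPM.

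Lrp8 (chromosome 4, 107802261 to 107876840, plus strand), the F-spondin receptor, was a low-level gene in these monocytes, and its order among groups was not that of Spon1. Counts were 316, 236 and 231 in FVB BM IMs and 112, 119 and 160 in DBA2 BM IMs. They were 314, 534, 354, 658 and 374 in primary tumors, 869, 1074, 430, 504 and 532 in lymph nodes and 53, 61, 24, 68 and 150 in LN4K1 lungs. From low to high the means were 0.792 ± 0.514 CPM (n = 5) in LN4K1 TIMs, 1.34 ± 0.301 (n = 3) in DBA2 BM IMs, 2.69 ± 0.802 (n = 3) in FVB BM IMs, 5.03 ± 1.58 (n = 5) in primary tumors and 8.48 ± 3.82 (n = 5) in lymph nodes. The group with most Spon1 thus had the least Lrp8, although the ranges of LN4K1 TIMs and DBA2 BM IMs overlapped, as did those of primary tumor TIMs with FVB BM IMs and with lymph node TIMs.

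Lrp8 rose by 0.89 on the log2 scale in primary tumors (SE 0.31, adjusted p = 0.0319) and by 1.66 in lymph nodes (SE 0.45, adjusted p = 0.0162). In LN4K1 lungs the log2 value was -0.84 (SE 0.57, adjusted p = 0.328). The primary tumor call was lost without FVB replicate 2 (adjusted p = 0.0955) or 3 (0.0970) or primary tumor replicate 2 (0.0677) or 4 (0.0723), in the fit of all 5 groups (0.122) and with the replicate block (0.184). The lymph node call was lost without FVB replicate 2 (0.0723) or 3 (0.0602). The epithelial marker sum was lower in lymph node than in primary tumor TIMs (medians of 61.2 and 200 CPM). The Lrp8 means ran the other way, as did Cdh1 within that sum (means of 62.4 and 52.5 CPM). The part of such cells in the Lrp8 level was not tested.

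Vldlr (chromosome 19, 27216484 to 27254231, plus strand), the very low density lipoprotein receptor, was seen almost only in LN2E1 TIMs. Counts were 295, 210, 404, 392 and 220 in primary tumors and 774, 286, 128, 378 and 360 in lymph nodes. FVB BM IM libraries held 0, 0 and 10 counts, LN4K1 TIM libraries 0, 0, 0, 28 and 30, and all 3 DBA2 BM IM libraries 0. The means were 3.43 ± 1.04 CPM (n = 5) in primary tumors, 4.72 ± 2.87 (n = 5) in lymph nodes, 0.125 ± 0.172 (n = 5) in LN4K1 lungs and 0.0298 ± 0.0516 (n = 3) in FVB BM IMs, and the 2 LN2E1 groups overlapped with each other and with no other group.

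Vldlr rose by 6.66 in primary tumors (SE 0.99, adjusted p = 0.000310) and by 7.18 in lymph nodes (SE 1.46, adjusted p = 0.00367), both on the log2 scale and against the same FVB libraries. The baseline rests on 10 counts in FVB replicate 3, without which the values were 11.27 and 11.65. The replicate block ended the lymph node call (adjusted p = 0.0576). In LN4K1 TIMs the gene did not pass the filter on low counts and was not tested, and its mean was at least 4.05-fold above the floor of DBA2 BM IMs through replicates 4 and 5 (2.72-fold without the former and 2.35-fold without the latter). The highest Vldlr level of all libraries, 9.38 CPM, was that of lymph node replicate 1, whose marker sums are given above (fibroblast 0.836, epithelial 61.2 and endothelial 2.77 CPM), and the part of those cells was not tested. Vldlr and Spon2 passed the filter in the comparisons with BM IMs through their TIM libraries, so their place among the tested genes already reflects a difference.

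**Figure D2:**
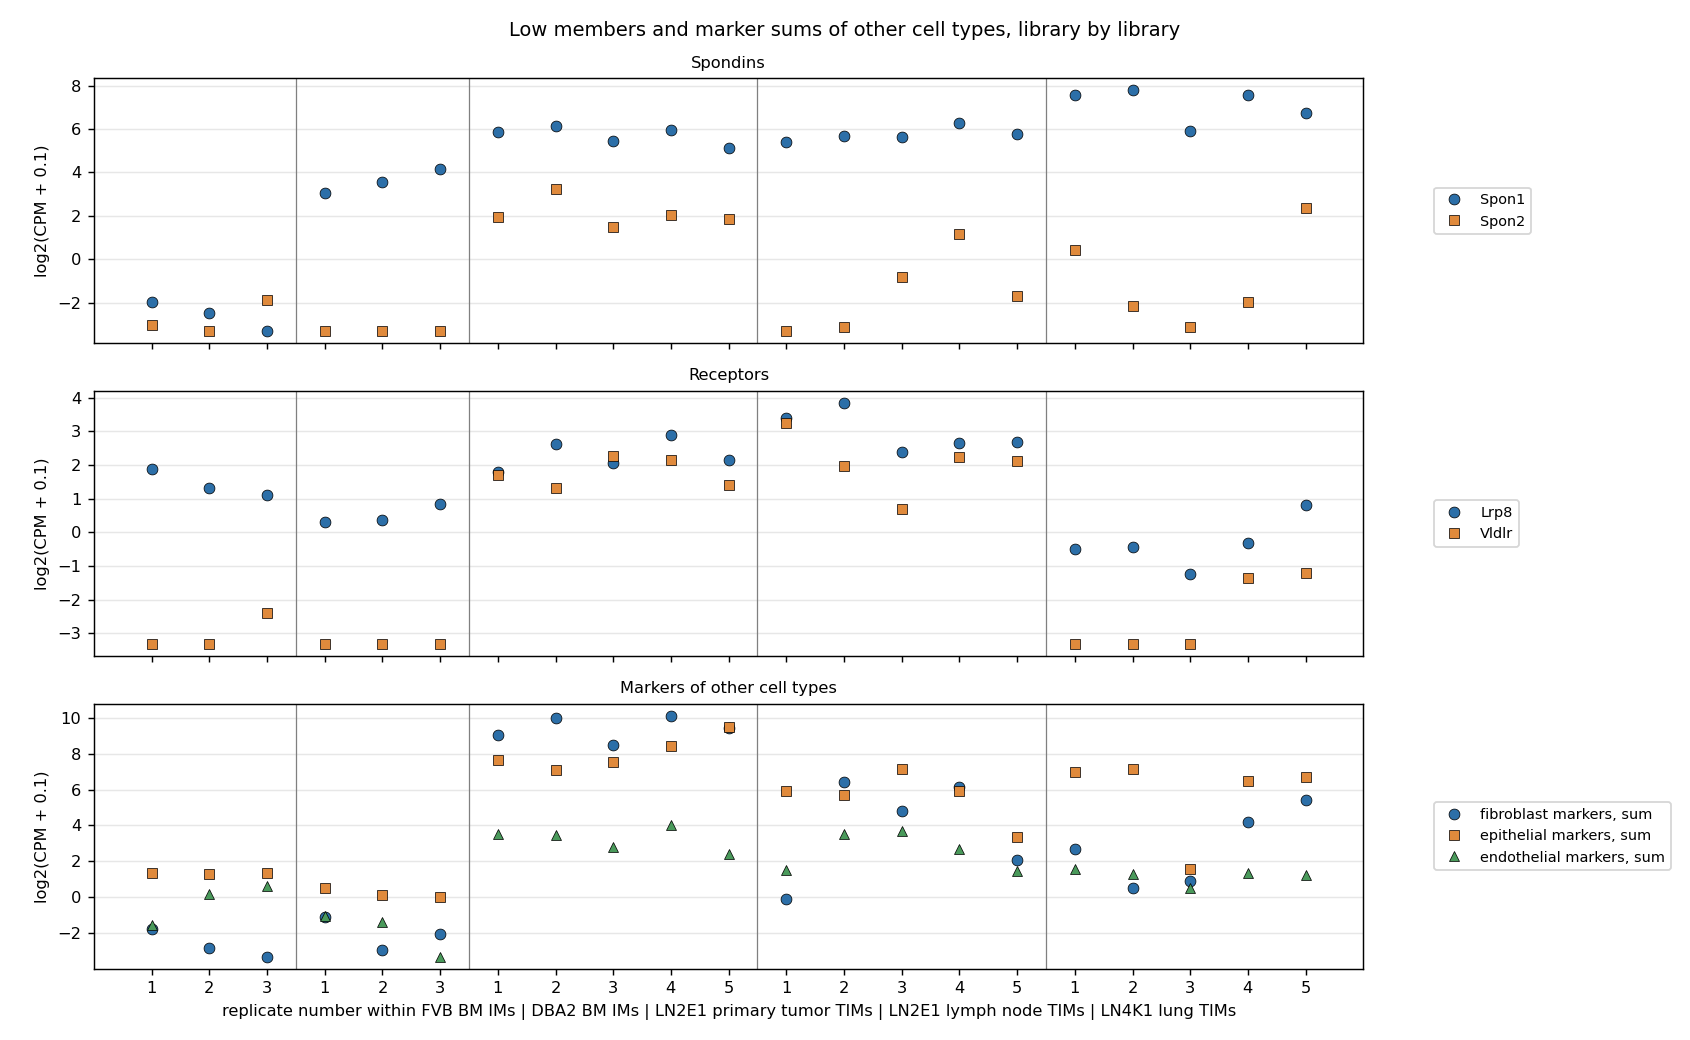
Log2 of CPM plus 0.1 (y axes) is plotted for the 21 libraries (x axis, replicate number within each group, groups divided by vertical lines), with the spondins on top, Lrp8 and Vldlr in the middle and the summed fibroblast, epithelial and endothelial markers below. Fibroblast markers reach 365 to 1110 CPM in primary tumor TIMs, where Spon2 is found in every library, and epithelial markers range from 2.93 to 142 CPM in LN4K1 TIMs.

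Lrp1 (chromosome 10, 127538161 to 127621148, minus strand) was the most abundant of the 3 receptors and rose in all 3 TIM groups. Levels were 75.4, 71.6 and 113 CPM in FVB BM IMs and 150, 129 and 160 CPM in DBA2 BM IMs. They were 349, 390, 359, 342 and 349 CPM in primary tumors, 268, 382, 475, 440 and 498 CPM in lymph nodes and 388, 364, 337, 375 and 471 CPM in LN4K1 lungs. Every TIM library lay above every BM IM library of either strain, and the 3 TIM groups overlapped. The rise was 2.02 on the log2 scale in primary tumors (SE 0.17, adjusted p = 7.05e-06), 2.25 in lymph nodes (SE 0.25, adjusted p = 8.03e-05) and 1.33 in LN4K1 lungs (SE 0.14, adjusted p = 0.000120). It held at an adjusted p under 0.05 in all 8 fits without 1 library of each comparison, and in primary tumors it also met in all 8 the stricter thresholds that the study set for differentially expressed genes (DEGs), an adjusted p below 0.0001 with a log2 fold change beyond 1 in either direction.

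Lrpap1 (chromosome 5, 35091501 to 35105766, minus strand), which encodes the receptor-associated chaperone, showed no change that passed the threshold. Its means were 282 ± 35.0 CPM (n = 3) in FVB BM IMs, 353 ± 63.8 (n = 5) in primary tumors and 357 ± 72.1 (n = 5) in lymph nodes, and 222 ± 15.9 (n = 3) in DBA2 BM IMs against 253 ± 12.3 (n = 5) in LN4K1 lungs. The log2 fold changes were 0.31 (SE 0.15, adjusted p = 0.0994), 0.34 (SE 0.18, adjusted p = 0.175) and 0.11 (SE 0.10, adjusted p = 0.473) in primary tumors, lymph nodes and LN4K1 lungs. In primary tumors DESeq2 gave an adjusted p of 0.0492, and in lymph nodes the fit without lymph node replicate 3 (237 CPM, against 344 to 420 CPM in the 4 others) gave 0.0208.

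App (chromosome 16, 84949685 to 85173766, minus strand), the amyloid precursor protein gene and the most abundant of the 8 in CPM, rose modestly in LN2E1 TIMs. Levels were 443, 465 and 502 CPM in FVB BM IMs, 631, 689, 662, 664 and 707 CPM in primary tumors and 647, 698, 632, 757 and 829 CPM in lymph nodes. The TIM libraries of LN2E1 therefore did not overlap with their baseline, and the log2 fold changes were 0.49 (SE 0.08, adjusted p = 0.000694) and 0.60 (SE 0.12, adjusted p = 0.00342). DBA2 BM IMs held 504, 500 and 448 CPM and LN4K1 TIMs 618, 621, 435, 594 and 525 CPM, with a log2 fold change of 0.13 (SE 0.14, adjusted p = 0.555). App shares 113 bp of exon (0.87%) with the antisense gene Gm49227, and reads there could not be told apart because the libraries carried no strand. No other of the 8 genes shared exon bases with another gene.

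Aplp2 (chromosome 9, 31149557 to 31211815, minus strand), the widely expressed relative of App, rose more than App did. Levels were 208, 235 and 267 CPM in FVB BM IMs, 498, 439, 502, 502 and 486 CPM in primary tumors and 298, 397, 421, 585 and 448 CPM in lymph nodes. The rise was 1.01 on the log2 scale in primary tumors (SE 0.11, adjusted p = 3.46e-05) and 0.86 in lymph nodes (SE 0.20, adjusted p = 0.00748), with no overlap in either. DBA2 BM IMs held 243, 241 and 246 CPM and LN4K1 TIMs 500, 606, 238, 499 and 379 CPM. The LN4K1 value of 0.80 (SE 0.27, adjusted p = 0.0561) missed the threshold. Replicate 3, whose Aplp2 level lay below all 3 baseline libraries, was also the lowest LN4K1 library in Spon1, Lrp8, Lrp1 and App, and without it the log2 fold change was 0.96 and the adjusted p 0.000909. DESeq2 (adjusted p = 0.0139) and the fit of all 5 groups (0.00667) also put it past the threshold.

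**Figure D3:**
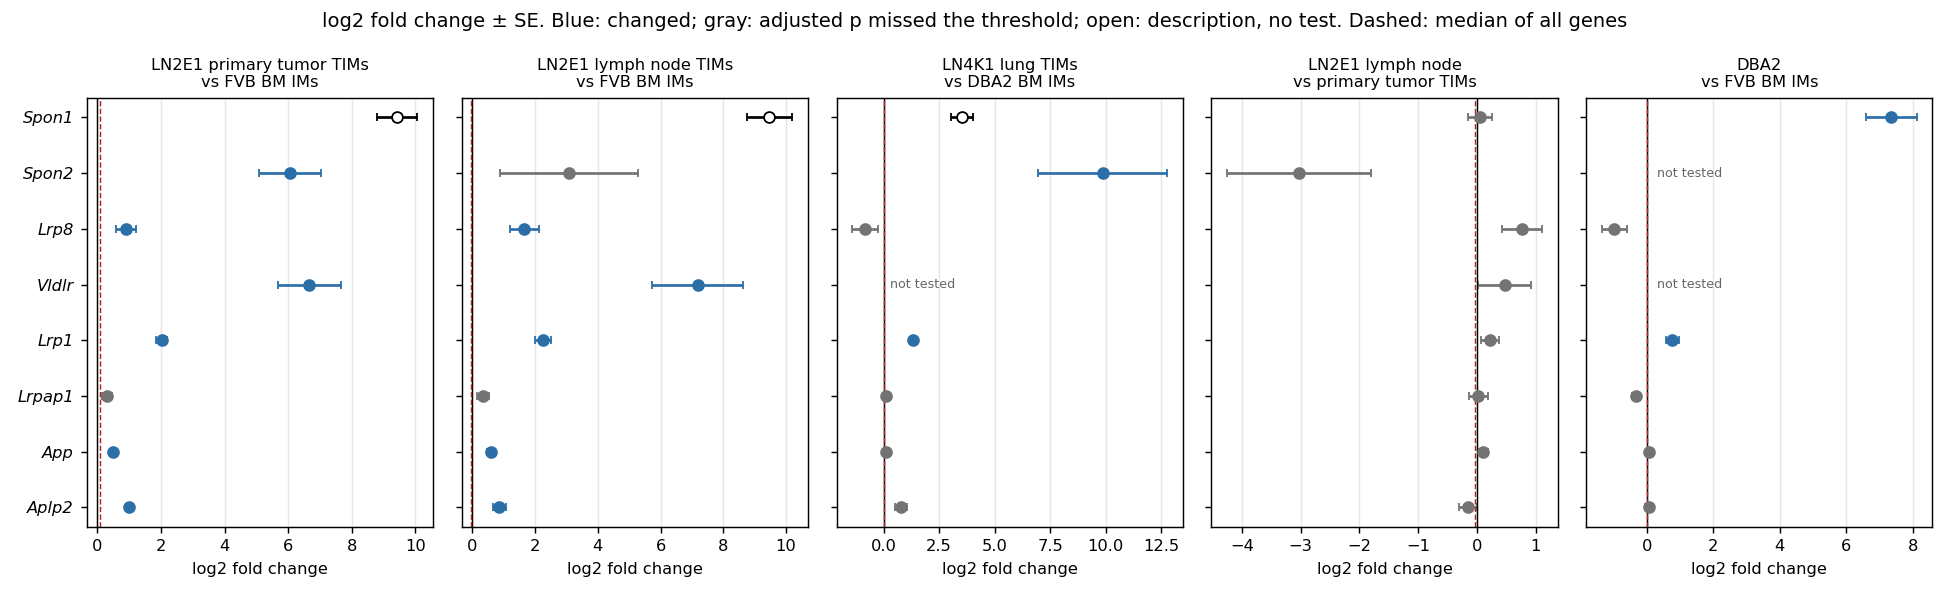
The log2 fold change of each gene (x axis, bars are SE) is plotted for 5 comparisons, with changed genes in blue, genes past no threshold in gray, Spon1 against BM IMs as open points with no test, and the median of all genes as a dashed line. Points in the 2 panels of LN2E1 TIMs against FVB BM IMs lie at or right of 0.31. In LN4K1 TIMs against DBA2 BM IMs, App and Lrpap1 lie at 0.13 and 0.11 and Lrp8 at -0.84.

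Counted by comparison, 6 of 7 genes were called in LN2E1 primary tumors, 5 in lymph nodes and 2 in LN4K1 lungs. Leaving out Spon2 and Vldlr, which passed the filter through TIM libraries, the counts were 4, 4 and 1 of 5. The 6 in primary tumors (all but Lrpap1) rose and none fell, where 61.9% of all 14569 genes tested had changed and 33.3% had risen, a high background against which the 6 of 7 have to be read. Their DEGs were 2 of 7, Lrp1 and Aplp2, against 12.9% of all genes. In lymph nodes 5 of 7 rose (Lrp8, Vldlr, Lrp1, App and Aplp2) against 37.4% of all genes changed and 20.2% risen, and Lrp1 was the 1 DEG, against 5.71%. Aplp2 stayed a DEG in primary tumors without FVB replicate 3 or primary tumor replicate 2 and not without any of the 6 other libraries, and Lrp1 stayed a DEG in lymph nodes without lymph node replicate 1 and not without any of the 7 others. Without FVB replicate 3 the primary tumor DEGs were 4, with Spon2 and Vldlr added. In LN4K1 lungs 2 of 7 rose (Spon2 and Lrp1) against 24.9% changed and 13.9% risen, with 6 of the 7 tested and 0 DEGs against 2.97%. At an unadjusted p under 0.05 and the same fit, 3 of the 6 were past it, and DESeq2 called 2 DEGs, Spon2 and Lrp1. The share of all genes was taken for neither rule, so these counts have no background to be read against. Without LN4K1 replicate 3 Lrp1 was a DEG, and 3 genes had changed with Aplp2 added. The median log2 fold change of all genes lay between -0.04 and 0.08 in these comparisons.

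Lymph node and primary tumor TIMs of LN2E1 were compared for a difference between metastasis and primary site. None of the 8 genes passed the adjusted threshold in edgeR, against 11.7% of all genes (0.0297% at the DEG thresholds). At an unadjusted p under 0.05 there were 2, Spon2 and Lrp8, and DESeq2 called 1, Spon2, with no share of all genes taken for either rule. Spon1 differed by 0.05 on the log2 scale (SE 0.21, adjusted p = 0.924). Spon2 was lower in every lymph node library than in any primary tumor library, with a log2 value of -3.03 (SE 1.22, adjusted p = 0.141) that passed without lymph node replicate 4 (-4.71, adjusted p = 0.0306). The fibroblast sum had the same order, with a median of 28.4 CPM in lymph nodes and 691 CPM in primary tumors. Lrp8 was higher in lymph nodes by 0.76 (SE 0.34, adjusted p = 0.182) with overlapping libraries. The log2 values of Vldlr, Lrp1, Lrpap1, App and Aplp2 were 0.47 (SE 0.45), 0.22 (SE 0.15), 0.02 (SE 0.16), 0.10 (SE 0.09) and -0.16 (SE 0.15). Of these, Lrp1 passed in the fit without lymph node replicate 1 (adjusted p = 0.0268).

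The baselines themselves differed between the strains. Spon1 was 156-fold higher in DBA2 than in FVB BM IMs as a ratio of mean CPM, with a log2 fold change of 7.36 (SE 0.76, adjusted p = 0.000627). Its selection used these same BM libraries, though not their difference, and with 14, 8 and 0 counts in FVB libraries it passed the filter on low counts only through the DBA2 libraries, so that a tested Spon1 had to differ. The call held in all 6 fits without 1 library (log2 values between 6.74 without FVB replicate 3 and 8.31 without FVB replicate 1), and DESeq2 gave an adjusted p of 1.33e-08 with a log2 value shrunken to 1.06. Lrp1 was higher in DBA2 BM IMs by 0.77 (SE 0.19, adjusted p = 0.0259), a call that was lost without FVB replicate 1 (adjusted p = 0.0842) or 2 (0.0963) or DBA2 replicate 1 (0.0704) or 3 (0.0927). These were 2 of 8 genes (6 tested), against 21.1% of all genes, and none was a DEG, against 0.403%. As Spon1 had to differ once tested, its p is no support, and Lrp1 alone remains to be set against that share. By unadjusted p under 0.05 there were 4 of the 6, and 1 DEG, Spon1, was called by DESeq2 and by edgeR without FVB replicate 3. No share of all genes was taken at these settings. Lrp8 gave a log2 value of -0.97 (SE 0.37, adjusted p = 0.0957), and Lrpap1 gave -0.32 (SE 0.11, adjusted p = 0.0701), which passed without FVB replicate 3 (0.00977). Neither overlapped between the strains, and the share of all genes without overlap was not taken. App and Aplp2 gave 0.07 (SE 0.10) and 0.06 (SE 0.11).

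The change in LN2E1 primary tumors was then set against that in LN4K1 lungs as an interaction. For Spon1 the log2 change was larger in LN2E1 by 5.91 (SE 0.78), a description, although the level reached was higher in LN4K1. Among the 7 others Lrp8 (1.75, SE 0.61, adjusted p = 0.0453) and Lrp1 (0.71, SE 0.21, adjusted p = 0.0196) had a higher log2 change in LN2E1 primary tumors, 2 of 7 against 26.5% of all genes. For Lrp8 this sets a rise of 0.89 against the LN4K1 value of -0.84, which missed the threshold. The Lrp8 call held in 3 of 16 fits without 1 library (without LN2E1 primary tumor replicate 1 or LN4K1 replicate 3 or 5) and the Lrp1 call in 13 (not without FVB replicate 1 or 2 or DBA2 replicate 3, adjusted p of 0.0812, 0.0681 and 0.0561). In the fit of all 5 groups neither passed (0.0708 and 0.0629). The values of Lrpap1, App and Aplp2 were 0.21 (SE 0.18), 0.38 (SE 0.17) and 0.23 (SE 0.30), and those of Spon2 and Vldlr rest on DBA2 libraries at 0 and give no size. Strain, cell line, route and tissue cannot be told apart here.

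Per kb of exon, the scale on which different genes can be compared, the lipoprotein receptors among these genes were far from equal. Lrp1 stood at 20.2 ± 1.08 CPM per kb (n = 5) in primary tumor TIMs, against 0.478 ± 0.151 for Lrp8 and 0.340 ± 0.104 for Vldlr. Aplp2 and App, at 82.6 ± 4.56 and 51.6 ± 2.22 CPM per kb, and the chaperone Lrpap1, at 85.8 ± 15.5, were higher still. Spon1 was at 5.17 ± 1.39 CPM per kb in the same libraries, 5.30 ± 1.3 in lymph nodes and 14.7 ± 6.51 in LN4K1 lungs, where Lrp1 stood at 21.8 ± 2.86 and Lrp8 at 0.0753 ± 0.0489. In FVB BM IMs Spon1, at 0.00773 ± 0.00766 (n = 3), lay below Lrp8, at 0.256 ± 0.0763, and in DBA2 BM IMs the order was turned, with 1.20 ± 0.450 for Spon1 and 0.128 ± 0.0287 for Lrp8.

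**Figure D4:**
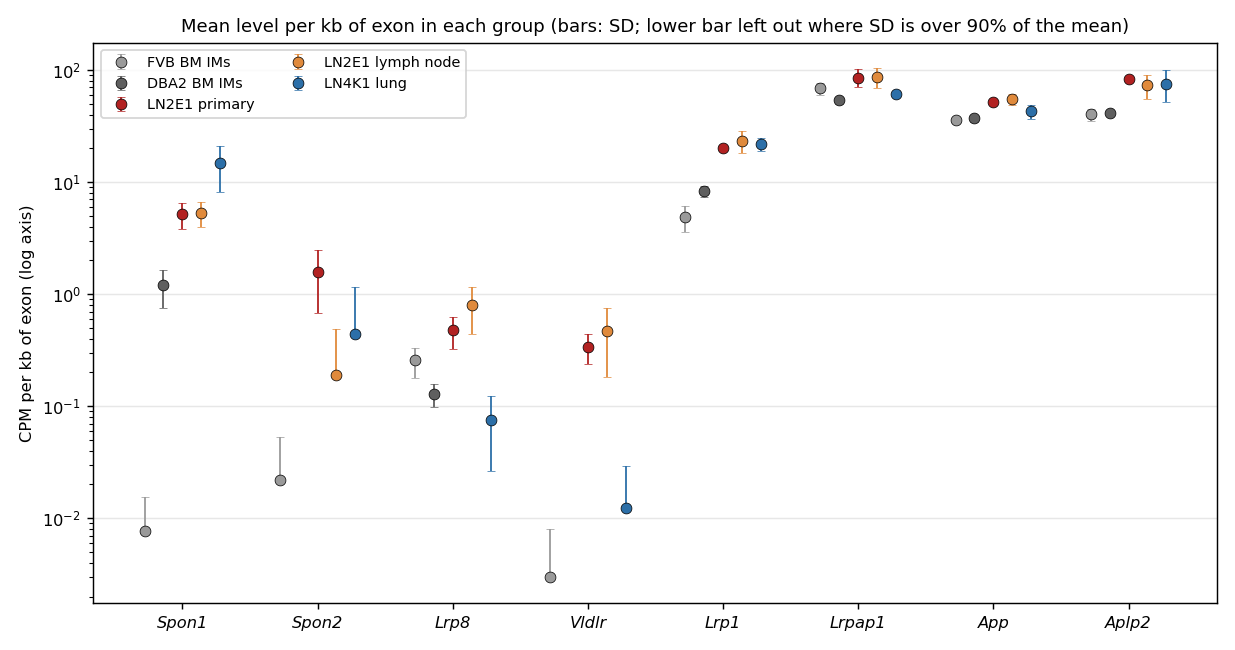
The mean CPM per kb of exon (y axis, log scale) is shown for the 8 genes (x axis) in the 5 groups, with bars for SD (n = 3 for BM IMs and 5 for TIMs). Spon1 spans from 0.00773 in FVB BM IMs to 14.7 in LN4K1 TIMs, Lrpap1, App and Aplp2 stay between 36.2 and 86.6 in every group, and Spon2 and Vldlr in DBA2 BM IMs, at 0, are not drawn.

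Around these genes, the rest of the lipoprotein receptor family and its pathway were counted by lists. Of the 11 other family members 9 were tested in primary tumors and 5 rose, 3 of 8 rose in lymph nodes and 4 of 8 in LN4K1 lungs, with none lower, where 33.3%, 20.2% and 13.9% of all genes rose and 61.9%, 37.4% and 24.9% changed in either direction. The medians were 0.66, 0.84 and 0.61 on the log2 scale, against 0.08, -0.04 and 0.03 over all genes.

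Among 12 other ligands of these receptors 6 rose and 1 fell of 9 tested in primary tumors, 4 rose and 1 fell of 7 in lymph nodes, and 4 rose and 1 fell of 9 in LN4K1 lungs, with medians of 1.45, 0.33 and 1.0, against the same shares of all genes risen (33.3%, 20.2% and 13.9%). Apoe, the apolipoprotein that gave LRP8 its other name, rose by 1.02 (SE 0.12), 1.06 (SE 0.18) and 1.97 (SE 0.32), to 4510 CPM in LN4K1 TIMs. Lpl, lipoprotein lipase, fell by 2.49, 1.93 and 1.22 on the log2 scale (SE 0.27, 0.16 and 0.37). Between lymph node and primary tumor TIMs 3 of 9 ligands were lower and none higher, where 749 of all 13488 genes tested were lower and 829 higher. Clu and Plat averaged 97.6 and 17.8 CPM in primary tumor TIMs, where fibroblast and epithelial marker sums were highest by median. In lymph node TIMs they averaged 2.42 and 0.916 CPM, and the part of those cells was not tested. Both were named after their values were seen.

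Of 16 adaptors and signaling genes 11 of 14 tested rose in primary tumors, 5 of 13 in lymph nodes and 3 of 13 in LN4K1 lungs, and none fell, with medians of 0.69, 0.42 and 0.14. Of all genes 33.3%, 20.2% and 13.9% rose and 61.9%, 37.4% and 24.9% changed. Dab2, an endocytic adaptor that binds NPxY motifs such as those printed above, went from 0.174 CPM in FVB BM IMs to 197 in primary tumors and 168 in lymph nodes, and from 0.267 in DBA2 BM IMs to 32.8 in LN4K1 lungs. Its log2 fold changes were 10.17 (SE 0.54), 9.95 (SE 0.67) and 6.86 (SE 0.85). Dab2, like the other genes named by the rule for the lists, was picked on these same comparisons, so the values are a description. Dab1, the reelin adaptor, was not tested, with means of at most 0.00480 CPM. Fyn, a Src family kinase of the reelin pathway, rose by 3.08 (SE 0.14), 3.82 (SE 0.20) and 1.31 (SE 0.38), and was higher in lymph node than in primary tumor TIMs by 0.73 (SE 0.14, adjusted p = 0.00610).

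Of the 3 genes of receptor turnover, Mylip (a ligase that degrades lipoprotein receptors) and the liver X receptor genes Nr1h2 and Nr1h3 that control it, 2 rose in primary tumors, 3 in lymph nodes and 1 in LN4K1 lungs. Nr1h3 rose in all 3 comparisons, by 2.68 (SE 0.21), 3.08 (SE 0.27) and 2.16 (SE 0.46). In the list of 17 genes of APP processing, 10 rose and 2 fell of 16 tested in primary tumors, 7 rose and 1 fell of 14 in lymph nodes, and 1 rose and 1 fell of 16 in LN4K1 lungs, with medians of 0.59, 0.50 and 0.22, where 33.3%, 20.2% and 13.9% of all genes rose and 61.9%, 37.4% and 24.9% changed. Psen2, a catalytic subunit of γ-secretase, rose by 0.55 (SE 0.11), 0.51 (SE 0.13) and 0.34 (SE 0.10) and differed more between the strains, by 0.94 (SE 0.11, adjusted p = 0.000952) in favor of DBA2 BM IMs.

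Other proteins with thrombospondin repeats moved in both directions. Of 10 genes 5 were tested in primary tumors (2 rose and 2 fell), 3 in lymph nodes (1 fell) and 5 in LN4K1 lungs (2 rose and 1 fell), with medians of -0.58, -0.37 and 0.76. Of all genes 61.9%, 37.4% and 24.9% changed in these comparisons. Cfp, the complement regulator properdin, was lower in all 3, by -0.58 (SE 0.15), -0.58 (SE 0.17) and -1.08 (SE 0.17). The 2 LN2E1 comparisons share their FVB BM IM libraries.

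**Figure D5:**
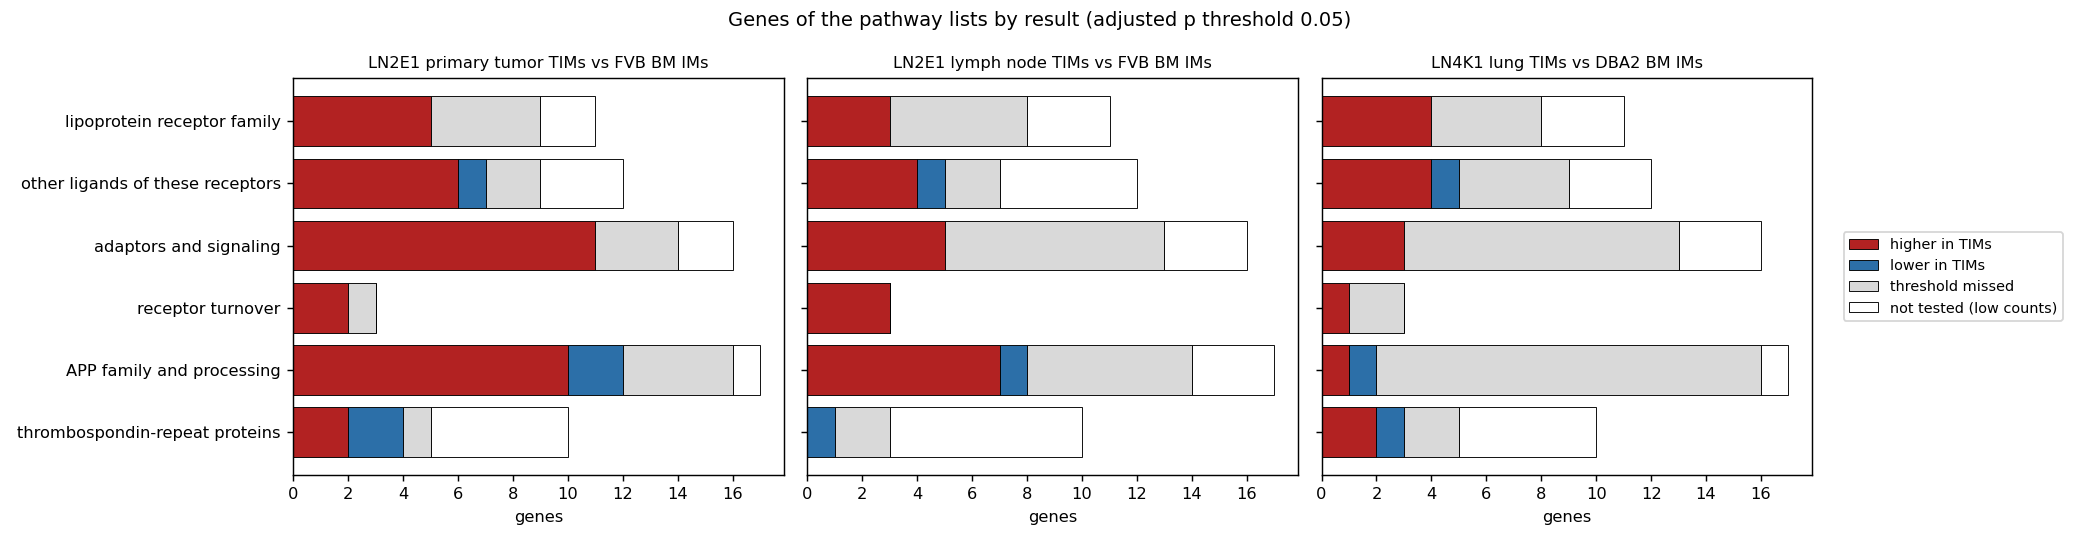
For each list (y axis) the bars give the number of genes (x axis) that were higher in TIMs, lower in TIMs, short of the threshold or not tested, in the 3 comparisons with BM IMs. In primary tumors 11 of 14 adaptor and signaling genes tested are higher and in LN4K1 lungs 3 of 13, where 33.3% and 13.9% of all genes were higher.

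The genes most like each low or variable member were sought over the 21 libraries by Pearson correlation of log2 CPM among 15411 genes, as a description in which the libraries share groups and strains. Spon1 was closest to AI607873 (r = 0.977), Gbp6 (r = 0.969) and Oasl2 (r = 0.966). Gbp6 and Oasl2 are known as interferon-induced genes, and Gbp6 had group means of 0.356 CPM in FVB BM IMs, 5.99 in DBA2 BM IMs, 41.3 in primary tumors, 57.4 in lymph nodes and 65.2 in LN4K1 lungs. Spon2 was closest to Leprel4 (r = 0.927), Ecscr (r = 0.924) and Steap1 (r = 0.911). Ecscr is known from endothelial cells and Leprel4 from collagen modification, and they averaged 3.14 and 5.31 CPM in primary tumors and 0.141 and 0.441 in lymph nodes. Lrp8 was closest to Klra17 (r = 0.948), Tmed1 (r = 0.929) and Isy1 (r = 0.923), and Vldlr to Slc3a2 (r = 0.949), P4ha1 (r = 0.944) and Rbm47 (r = 0.942). Slc3a2, a subunit of amino acid transporters, and P4ha1, a collagen prolyl hydroxylase, averaged 247 and 41.6 CPM in FVB BM IMs and 518 and 192 in lymph node TIMs.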

How the data were processed

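RNA was made from mouse IMs enriched with a monocyte kit and sorted as CD45+ CD11b+ Ly6C-high Ly6G- cells (the study's gating scheme for tumors and BM leaves out Siglec-F+ cells, and its methods state this step for lung tissue), and libraries were prepared with SMARTer amplification and Nextera XT, which keep no strand. The counts per gene were made by the authors before they were deposited, with BBDuk trimming, BBMap alignment to mm10, samtools 1.8 and featureCounts 1.5.2, whose settings and annotation are not given in the sources used here. Reads of near-identical genes may be split, and total counts bound the precision of low genes through counting error alone.

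The table held raw counts for 23420 symbols, of which 3910 were 0 in every library, and all 21 columns matched a sample. Libraries were grouped by their labels. For each comparison edgeR 4.0.16 in R 4.3.3 was run on the libraries of the groups compared (robust quasi-likelihood test, TMM, filterByExpr at 10 counts per library and 15 in total, Benjamini-Hochberg adjustment over all genes tested). The interaction was fitted on the 4 groups it compares. The SE was the absolute log2 fold change divided by the square root of F and is approximate. Log2 CPM used a prior count of 2. The study's DEG thresholds were an adjusted p below 0.0001 and a log2 fold change beyond 1. The scripts were tested on simulated data. Alternatives were DESeq2 1.42.0 and its size factors, no filter on low counts, 1 fit of all 5 groups, the replicate number as a block, and leaving out each library in turn.

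All members were described. From each list at most 2 genes per direction were named, those with the largest minimum change among genes past an adjusted p of 0.05 in 1 direction in all 3 comparisons of TIMs with BM IMs and with a mean log2 CPM above 3, and for likeness the 3 genes of highest r with each of 4 members. Dab1, Clu and Plat were named outside this rule, and 1 gene that the rule names is not reported here. The members and lists were chosen with earlier results of these data known. Exon lengths, locations and coding sequences came from GENCODE vM21 on GRCm38. The file held no columns of the authors' own comparisons.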

Additional observations from a re-analysis of the deposited data

Results flagged for a closer look

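In 6 of the 24 groups of 5 libraries tested (8 genes in 3 TIM groups), 1 library stood apart from the rest of its group, with a gap to its nearest neighbor of more than 0.71 of the group's range, which chance gives in about 1 of 20 groups. Spon2 stood apart in all 3 TIM groups: primary tumor replicate 2 at 9.36 CPM (gap ratio 0.812), lymph node replicate 4 at 2.12 CPM (0.776) and LN4K1 replicate 5 at 4.98 CPM (0.748). Lrp8 in LN4K1 replicate 5 was high at 1.67 CPM (0.719). In primary tumors Lrpap1 was high in replicate 3 at 465 CPM (0.820) and Aplp2 was low in replicate 2 at 439 CPM (0.734).

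The change from BM IMs to TIMs differed between LN2E1 primary tumors and LN4K1 lungs by the interaction test in edgeR for Lrp8, by 1.75 on the log2 scale (adjusted p = 0.0453), and for Lrp1, by 0.71 (adjusted p = 0.0196). These were 2 of 7 genes, against 26.5% of all genes. The Lrp8 call held in 3 of 16 fits without 1 library and the Lrp1 call in 13. Neither passed in the fit of all 5 groups. Strain, cell line, route and tissue cannot be told apart in this test.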

How the results depend on the processing

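The counts of genes called rested on the setting more than the directions did. For primary tumors the DEGs numbered 2, and 1 in the fit of all 5 groups (Lrp1), 0 with the replicate block and 4 by DESeq2. For lymph nodes the DEGs numbered 1, and 0 with the block and 2 by DESeq2. For LN4K1 lungs the genes changed numbered 2, and 4 in the fit of all 5 groups and 1 with the block (Lrp1), and the DEGs numbered 0, and 1 without a filter, 1 in the fit of all 5 groups and 2 by DESeq2. Between lymph node and primary tumor TIMs DESeq2 called 1 gene against 0, and between the strains the fit of all 5 groups and DESeq2 each gave 1 DEG (Spon1) against 0. For the interaction the count of 2 became 1 without a filter (Lrp1) and 0 in the fit of all 5 groups. DESeq2's size factors in edgeR changed no member count. Shares of all genes were taken only for the main edgeR fits. Without Spon2 and Vldlr, a count added after seeing the data, 4, 4 and 1 genes changed in primary tumors, lymph nodes and LN4K1 lungs. Leaving out 1 library at a time gave 5 to 6 genes changed and 1 to 4 DEGs in primary tumors, 4 to 6 and 0 to 1 in lymph nodes, 1 to 3 and 0 to 1 in LN4K1 lungs, 0 to 1 and 0 between lymph node and primary tumor TIMs, 1 to 3 and 0 to 1 between the strains, and 0 to 2 for the interaction.

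Directions reversed where values lay near 0. Between lymph node and primary tumor TIMs, Lrpap1 went from 0.02 to -0.01 with DESeq2's size factors and -0.0044 by DESeq2, and from -0.04 to 0.14 without single libraries, where Spon1 ran from -0.11 to 0.16. Aplp2 between the strains ran from -0.03 to 0.18. Vldlr in the interaction ran from -0.35 to 4.82, but its value rests on DBA2 BM IM libraries at 0 counts and gives no size. The cause of the other reversals was not tested. Replicate numbers gave no sure pairing: the correlation of deviations of same-numbered libraries was not over 0.1 in every pair of any comparison. Between lymph node and primary tumor TIMs it ran from -0.193 to 0.151, with the own number best in 1 of 5 pairs. It ran from -0.297 to 0.080 in primary tumors and their baseline. In lymph nodes and theirs it ran from 0.081 to 0.297, with the own number best in each of 3 pairs. The measure cannot tell whether libraries under different numbers came from the same animal. With the replicate block 5, 4, 1, 0, 2 and 2 genes changed in the 3 comparisons with BM IMs, between sites, between strains and in the interaction. Spon2 and Vldlr in BM IMs were limited by depth to a floor of 3 counts per library.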
